A study of Homo sapiens with 24 samples.

Results

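Lipid droplets are organelles in which cells keep fatty acids as triglyceride under a coat of perilipin proteins. Fatty acids are first joined to coenzyme A, then esterified to glycerol in a final step carried out by the diacylglycerol acyltransferases, and later released by adipose triglyceride lipase for export or for oxidation in mitochondria. Clear cell renal carcinoma owes its name to the stored lipid and glycogen that make its cytoplasm look empty, and hypoxia-inducible factor, which is stabilised when VHL is lost, is known to act on several genes of this system.

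The 10 genes described here were chosen by name as lipid droplet and fatty acid storage genes, out of 26475 genes in each of 24 RNA-sequencing libraries. They are the coat proteins PLIN2, PLIN3 and CIDEC, the acyltransferases DGAT1 and DGAT2, the fatty acid activating enzyme ACSL3, the lipase PNPLA2 with its protein inhibitors G0S2 and HILPDA, and CPT1A, which starts fatty acid entry into mitochondria. The libraries came from 786-M1A and OS-LM1, metastatic derivatives of the VHL-mutant human clear cell renal carcinoma lines 786-O and OS-RC2, both carrying a luciferase reporter and grown in RPMI medium with fetal bovine serum. Each line had 4 libraries with a non-targeting guide RNA, sgNTC18, 4 with the RNA interference construct shPAX8-1 and 4 with shPAX8-2, both directed at PAX8, a transcription factor of the renal epithelial lineage. The comparisons ask how these genes differ when PAX8 is depleted and whether they differ alike in both lines. The control is a CRISPR guide and the depleted cells carry RNA interference constructs, so that the kind of construct goes with the group and cannot be told apart from the depletion. Nothing in the labels says that replicates were separate cultures, and the p-values measure the spread between these libraries, which may be technical.

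Library totals ran from 11634419 to 52059375 estimated counts. A normalised count is given here in CPM, counts scaled to a common library size, and a level that is compared between genes in TPM, which is scaled to the library and corrected for the length of the transcript. CIDEC fell below the filter on low counts, and 9 of the 10 genes were tested in each fit. The 4 shPAX8-1 libraries of 786-M1A stood apart from each other as replicates 1 and 2 against 3 and 4, with a chi-square per gene of 14.1 and 3.73 within these pairs and 44.7 to 77.4 across them. Other groups were uneven too, with 89.5 between replicates 3 and 4 of OS-LM1 shPAX8-2 and 43.8 between replicates 2 and 3 of OS-LM1 sgNTC18. The measure rises with library totals, and OS-LM1 shPAX8-2 replicate 3 had the highest total. Fold changes also followed the GC content of the transcripts, with Spearman correlations across genes from -0.557 between the constructs in 786-M1A to 0.397 for the difference of that comparison between lines, and -0.363 for shPAX8-1 against sgNTC18 in 786-M1A. Genes are not independent replicates. DGAT1 and PNPLA2 are the most GC-rich of the members, at 63.2% and 64.5% GC, and ACSL3 the least, at 37.1%. For the members, values with the GC trend removed are given beside the calls they change and beside most values they change in size. No such values are given for other genes of fatty acid handling, whose counts, medians and fold changes below are not corrected for the trend. Of the markers of other cell types, the 6 adipocyte genes had CIDEA at 0 and summed to 0.78 to 1.33 TPM in 786-M1A with sgNTC18, 1.82 to 2.56 TPM with shPAX8-1 and 2.01 to 3.68 TPM with shPAX8-2, and to at most 0.88 TPM in OS-LM1. The 12 renal epithelial and clear cell carcinoma genes summed to 4639 to 10585 TPM, of which VIM made up 3178 to 9345 TPM. CA9, a defining gene of that list, was at 0 in the 786-M1A sgNTC18 libraries and at most 0.18 TPM with the constructs there. In OS-LM1 CA9 was 6.85 to 7.87 TPM with sgNTC18, 43.1 to 58.4 TPM with shPAX8-1 and 28.1 to 39.5 TPM with shPAX8-2. NDUFA4L2 of that list was 0.57 to 1.16, 28.0 to 41.9 and 31.6 to 43.5 TPM in the same order. It was at most 0.93 TPM in 786-M1A. In OS-LM1 VEGFA was 147 to 174, 86 to 114 and 108 to 152 TPM in that order. NNMT was 141 to 163, 35.1 to 51.0 and 66.2 to 75 TPM. The 5 leukocyte and macrophage genes summed to 73.9 to 365 TPM, of which CD68 made up 73.2 to 363 TPM, with CD163 at 0 and PTPRC at most 0.36 TPM. In OS-LM1 CD68 was 73.2 to 85.2 TPM with sgNTC18, 246 to 323 TPM with shPAX8-1 and 189 to 231 TPM with shPAX8-2. In 786-M1A it was 197 to 215, 178 to 285 and 286 to 363 TPM in the same order. CD14 was at most 0.58 TPM with sgNTC18 and 1.06 to 4.51 TPM with the constructs. CSF1R in 786-M1A was 1.01 to 1.53 TPM with sgNTC18 and 0.43 to 0.96 TPM with the constructs. The 4 fibroblast genes summed to 4.76 to 6.11 TPM in OS-LM1 with sgNTC18, 29.6 to 35.0 TPM with shPAX8-1 and 29.5 to 59.2 TPM with shPAX8-2. In 786-M1A the sums were 1.75 to 2.33, 5.03 to 8.32 and 6.56 to 8.57 TPM in the same order. With the constructs in OS-LM1, COL1A1 made up 27.0 to 58.3 TPM, with COL1A2 at most 0.01 TPM and DCN at most 0.89 TPM. The part of these cells or genes in the results was not tested.

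PAX8 was lower in every shPAX8 library than in any sgNTC18 library of its line. Its gene lies on the minus strand at chr2:113215997-113278921 of GRCh38. The guide strands of both constructs, which set what is depleted, are printed 5′ to 3′ with the seed, bases 2 to 8, in capitals.
shPAX8-1: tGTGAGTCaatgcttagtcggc
shPAX8-2: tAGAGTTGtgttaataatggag
The site of shPAX8-1 was at chr2:113241690-113241711 and lay in coding sequence in 8 of the 10 PAX8 transcripts that held it. The site of shPAX8-2 was at chr2:113218122-113218143 and lay in the untranslated region of all 7 transcripts that held it. Of 14 annotated PAX8 transcripts, some therefore held no full match to a guide, and no other gene held one. In 786-M1A PAX8 stood at 292 to 393 CPM with sgNTC18, 14.8 to 22.9 with shPAX8-1 and 40.0 to 45.5 with shPAX8-2. In OS-LM1 it stood at 245 to 279 CPM with sgNTC18, 59.8 to 89.2 with shPAX8-1 and 63.8 to 97.0 with shPAX8-2. PAX8 thus fell 17.9-fold and 7.93-fold in 786-M1A and 3.39-fold and 3.27-fold in OS-LM1, and the decrease was larger in 786-M1A for each construct (edgeR, adjusted p = 1.13e-10 and 4.98e-06 for the differences).

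With shPAX8-1 in 786-M1A, 7 of the 9 genes tested passed an adjusted p of 0.05, 4 higher and 3 lower, beside 70.6% of all genes tested (36.1% higher and 34.5% lower). With shPAX8-2 in that line 8 passed, 6 higher and 2 lower, beside 62.5% of all genes (31.5% higher and 30.9% lower). In OS-LM1 the count was 7 with shPAX8-1, 1 of them higher, beside 71.4% of all genes (35.6% higher and 35.8% lower). It was 8 with shPAX8-2, 2 of them higher, beside 68.4% (34.3% higher and 34.1% lower). The members were therefore called at about the rate of genes at large, and what follows concerns the direction and size of each. Both constructs were compared with the same sgNTC18 libraries within each line, so their values against it are given side by side. Adjusted p-values are from edgeR's quasi-likelihood test with Benjamini-Hochberg adjustment over all genes tested, and errors of log2 fold changes are standard errors.

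**Figure D1:**
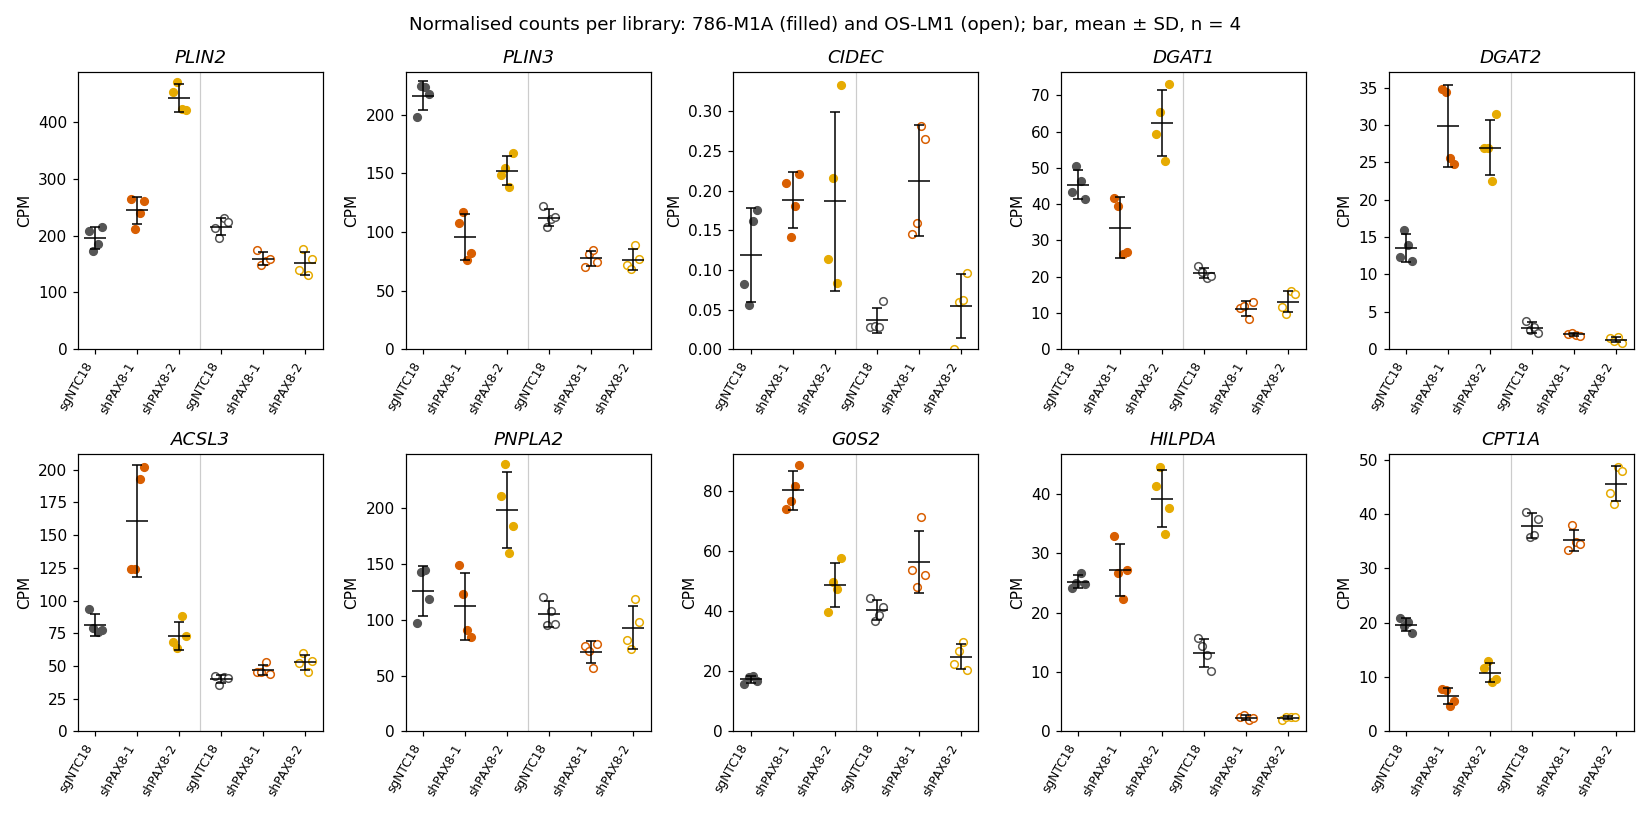
Normalised counts (CPM, linear axis from 0) of the 10 genes in each of 24 libraries, with points for libraries and bars for the mean and SD of 4. HILPDA in OS-LM1 fell from 10.1 to 15.7 CPM with sgNTC18 to at most 2.75 CPM with either construct, while CPT1A in 786-M1A fell from at least 18.1 CPM to at most 12.9 CPM.

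The coat proteins come first, as the surface of the droplet. PLIN2, the perilipin that covers droplets in most cells outside fat and is degraded when no droplet holds it, lies at chr9:19108388-19127492 on the minus strand. It was the member with the highest mean TPM in each of the 6 groups, from 129.6 TPM in the OS-LM1 shPAX8-2 libraries to 377.5 TPM in the 786-M1A shPAX8-2 libraries. In 786-M1A it stood at 207, 173, 185 and 216 CPM with sgNTC18, at 265, 212, 240 and 261 CPM with shPAX8-1 and at 453, 471, 423 and 421 CPM with shPAX8-2. Every shPAX8-2 library was above every other library of that line, whereas the shPAX8-1 and sgNTC18 ranges met at 212 to 216 CPM. PLIN2 rose by 0.35 ± 0.10 on the log2 scale with shPAX8-1 (adjusted p = 0.0061) and by 1.20 ± 0.10 with shPAX8-2 (adjusted p = 1.24e-07). In OS-LM1 the direction was the other one. PLIN2 stood at 213, 196, 230 and 224 CPM with sgNTC18, at 175, 148, 155 and 159 CPM with shPAX8-1 and at 139, 176, 131 and 158 CPM with shPAX8-2, with no overlap between control and depleted libraries. It fell there by 0.47 ± 0.10 on the log2 scale with shPAX8-1 (adjusted p = 0.000229) and by 0.51 ± 0.10 with shPAX8-2 (adjusted p = 0.000103). PLIN1, the perilipin of adipocytes and one of the adipocyte genes above, stood at 0.03 to 0.19 TPM in 786-M1A with sgNTC18, at 1.12 to 1.96 TPM with shPAX8-1 and at 1.53 to 2.85 TPM with shPAX8-2, and at no more than 0.16 TPM in OS-LM1. Of the same list in 786-M1A, LIPE went the other way, from 0.57 to 0.74 TPM with sgNTC18 to 0.15 to 0.54 TPM with the constructs. FABP4 and CIDEA were at 0 with both constructs. ADIPOQ was 0.07 to 0.17 TPM with sgNTC18 and 0.18 to 0.53 TPM with the constructs, and LEP 0.03 to 0.11 and 0.03 to 0.22 TPM. The part of PLIN1 in the PLIN2 result was not tested.

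PLIN3, a perilipin that moves from the cytosol to small, newly formed droplets, was the single member that passed with a lower value in all 4 comparisons with sgNTC18. In 786-M1A it fell from 198 to 225 CPM with sgNTC18 to 75.8 to 117 CPM with shPAX8-1 and 138 to 167 CPM with shPAX8-2. In OS-LM1 it fell from 104 to 122 CPM to 70.3 to 84.3 CPM with shPAX8-1 and 68.2 to 88.6 CPM with shPAX8-2. None of these ranges met the range of its control. The log2 fold changes were -1.15 ± 0.13 and -0.48 ± 0.13 in 786-M1A and -0.56 ± 0.09 and -0.55 ± 0.09 in OS-LM1, with adjusted p from 1.35e-06 to 0.00407. With the GC trend removed, the change with shPAX8-1 was -0.58 in 786-M1A, and in OS-LM1 it was -0.08 with shPAX8-1, which did not pass (adjusted p = 0.371), and -0.22 with shPAX8-2 (adjusted p = 0.0119). Of all genes tested in both lines, 42.4% passed with one sign in both for shPAX8-1 and 33.9% for shPAX8-2. The balance of the coat also differed between lines. PLIN2 was 1.06 ± 0.15 times PLIN3 in TPM with sgNTC18 in 786-M1A (SD, n = 4), 3.09 ± 0.76 with shPAX8-1 and 3.40 ± 0.31 with shPAX8-2. In OS-LM1 the same ratio was 2.24 ± 0.17, 2.39 ± 0.37 and 2.32 ± 0.52. TPM were not corrected for the GC trend. With it removed, the log2 fold changes with shPAX8-1 in 786-M1A were 0.32 for PLIN2 and -0.58 for PLIN3.

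CIDEC, which enlarges droplets in adipocytes by fusing them, had 0 to 7 rounded counts per library and at most 0.333 CPM. The libraries are too shallow at this level for a comparison.

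The promoter sequences of PLIN2 and G0S2 are shown because both genes rose with both constructs in 786-M1A and had a promoter entry. DGAT2 rose likewise but had no entry. In OS-LM1 PLIN2 fell with both constructs, and G0S2 rose with shPAX8-1 and fell with shPAX8-2. Each is the 250 bases before the start of the gene in RefSeq on GRCh38.p14, read 5′ to 3′ on the strand of the gene. Capitals mark ACGTG and GCGTG on either strand, the core letters to which hypoxia-inducible factor is known to bind.
PLIN2 (chr9:19127493-19127742, minus strand): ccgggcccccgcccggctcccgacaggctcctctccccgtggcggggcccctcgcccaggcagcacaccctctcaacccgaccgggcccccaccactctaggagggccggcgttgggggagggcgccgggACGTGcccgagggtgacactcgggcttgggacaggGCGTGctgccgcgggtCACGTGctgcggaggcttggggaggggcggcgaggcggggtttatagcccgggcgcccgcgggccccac
G0S2 (chr1:209675162-209675411, plus strand): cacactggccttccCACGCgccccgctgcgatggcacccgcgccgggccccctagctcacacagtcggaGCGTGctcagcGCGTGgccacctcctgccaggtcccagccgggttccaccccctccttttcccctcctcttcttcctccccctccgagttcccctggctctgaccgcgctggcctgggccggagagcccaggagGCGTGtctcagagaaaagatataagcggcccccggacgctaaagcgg
PLIN2 held 3 matches to ACGTG, 2 of which overlap on opposite strands in CACGTG, and 1 to GCGTG. G0S2 held 4 matches to GCGTG and none to ACGTG. Over 35116 promoters of this length 43.2% held either motif, and 4 of the 7 members with an entry did. Besides PLIN2 and G0S2 these were PLIN3, which fell in all 4 comparisons with sgNTC18 and held 3 matches to GCGTG, and ACSL3, which held 1. PNPLA2, CPT1A and CIDEC held none. HILPDA, DGAT1 and DGAT2 had no entry. A match of letters is a description of the sequence and no evidence of binding.

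The acyltransferases DGAT1 and DGAT2 both make triglyceride from diacylglycerol, DGAT1 within the endoplasmic reticulum and DGAT2 also at the droplet surface. DGAT2, at chr11:75768778-75801534, went opposite ways in the lines. In 786-M1A it stood at 12.3, 16.0, 13.9 and 11.8 CPM with sgNTC18, at 34.8, 34.5, 25.6 and 24.7 CPM with shPAX8-1 and at 26.9, 26.9, 22.5 and 31.5 CPM with shPAX8-2. All 8 depleted libraries were above the 4 controls, and DGAT2 was 2.25-fold higher with shPAX8-1 (log2 1.17 ± 0.15, adjusted p = 6.34e-06) and 2.03-fold higher with shPAX8-2 (log2 1.02 ± 0.15, adjusted p = 3.82e-05). In OS-LM1 DGAT2 was low throughout, at 3.80, 2.61, 3.03 and 2.11 CPM with sgNTC18, at 2.09, 2.17, 1.85 and 1.82 CPM with shPAX8-1 and at 1.54, 1.13, 1.56 and 0.801 CPM with shPAX8-2. The control range met that of shPAX8-1 and lay above that of shPAX8-2. DGAT2 fell there 2.29-fold with shPAX8-2 (log2 -1.20 ± 0.24, adjusted p = 0.000179). With shPAX8-1 it fell 1.49-fold (log2 -0.57 ± 0.23, adjusted p = 0.0311), but this did not pass with the GC trend removed (adjusted p = 0.155) or without any of sgNTC18 replicate 1, sgNTC18 replicate 3, shPAX8-1 replicate 3 and shPAX8-1 replicate 4, when the log2 fold change was -0.39, -0.53, -0.55 and -0.53.

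DGAT1 fell in OS-LM1 with both constructs, from 19.6 to 22.8 CPM with sgNTC18 to 8.19 to 13.1 CPM with shPAX8-1 and 9.67 to 16.0 CPM with shPAX8-2. The depleted libraries did not overlap with the controls, and the log2 fold changes were -0.94 ± 0.15 (adjusted p = 1.52e-05) and -0.66 ± 0.15 (adjusted p = 0.000611). Both were smaller with the GC trend removed, at -0.36 (adjusted p = 0.00295) and -0.28 (adjusted p = 0.0139). In 786-M1A the control range was 41.5 to 50.4 CPM. There DGAT1 was higher with shPAX8-2, at 51.8 to 73.2 CPM (log2 0.48 ± 0.16, adjusted p = 0.0157), though without sgNTC18 replicate 4 or shPAX8-2 replicate 4 the adjusted p was 0.0503 and 0.0674. With shPAX8-1 it stood at 41.8 and 39.6 CPM in replicates 1 and 2 and at 26.1 and 26.7 CPM in replicates 3 and 4. The fitted log2 fold change was -0.41 ± 0.16 (adjusted p = 0.0307), with replicates 1 and 2 alone it was -0.16 (adjusted p = 0.301), and with the GC trend removed it turned to 0.34 (adjusted p = 0.00207). Leaving out sgNTC18 replicate 2 or 3, or shPAX8-1 replicate 3 or 4, also took the adjusted p above the threshold, to 0.0604 to 0.0935. In TPM, DGAT1 was 2.22 ± 0.12 times DGAT2 with sgNTC18 in 786-M1A (SD, n = 4), 0.730 ± 0.052 times with shPAX8-1 and 1.52 ± 0.06 times with shPAX8-2. DGAT2 had the higher TPM in the shPAX8-1 libraries alone. TPM were not corrected for the GC trend. With it removed, the log2 fold changes with shPAX8-1 there were 0.34 for DGAT1 and 1.44 for DGAT2. Whether DGAT2 stays above DGAT1 without the trend was not tested. In OS-LM1 the ratio of DGAT1 to DGAT2 in TPM stayed at 2.91 or above in every library.

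ACSL3, a long-chain acyl coenzyme A synthetase found on nascent droplets, rose with shPAX8-1 in 786-M1A and did not pass with shPAX8-2. It stood there at 93.5, 78.8, 75.8 and 77.6 CPM with sgNTC18, at 124, 124, 193 and 202 CPM with shPAX8-1 and at 68.6, 63.5, 88.0 and 72.6 CPM with shPAX8-2. The shPAX8-1 libraries lay above all others, with a log2 fold change of 1.00 ± 0.16 against sgNTC18 (adjusted p = 6.03e-05), and the 95% interval for shPAX8-2 was -0.49 to 0.21. With the GC trend removed the rise with shPAX8-1 was 0.39 (adjusted p = 4.16e-05), and the value with shPAX8-2 passed as a decrease, at -0.24 (adjusted p = 0.00406). Between the constructs the log2 difference was 1.14 ± 0.17 (adjusted p = 0.000125). In OS-LM1 ACSL3 was 35.3 to 42.3 CPM with sgNTC18, 43.6 to 52.8 CPM with shPAX8-1 and 45.2 to 59.6 CPM with shPAX8-2, and the difference passed with shPAX8-2 (log2 0.41 ± 0.10, adjusted p = 0.00136). With the GC trend removed this value was 0.03 and did not pass (adjusted p = 0.737). That of shPAX8-1 turned from 0.21, which did not pass, to -0.22, which passed as a decrease (adjusted p = 0.0124).

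**Figure D2:**
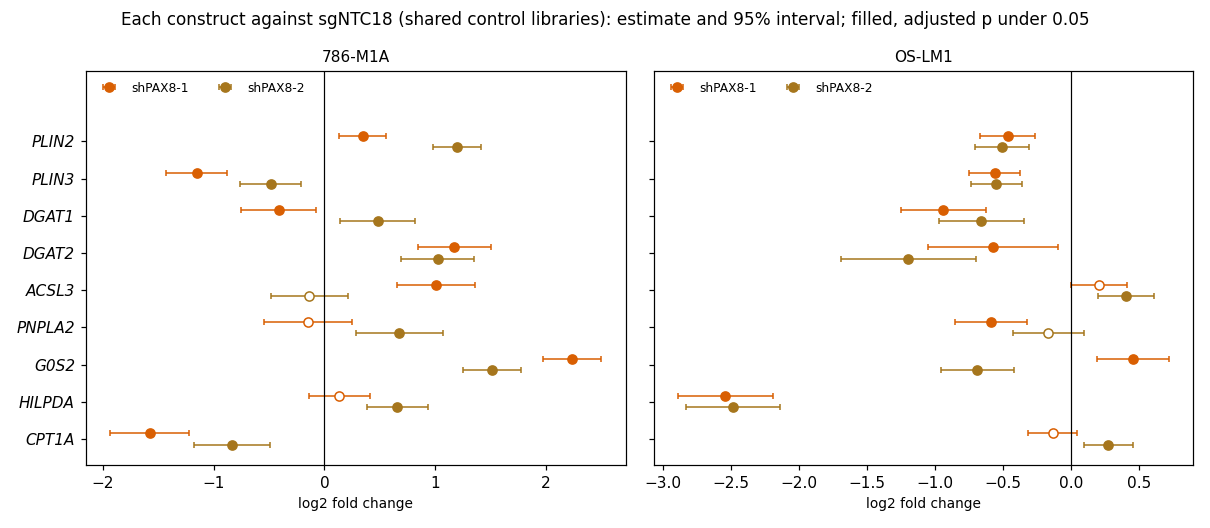
Log2 fold changes of the 9 tested genes with each construct against sgNTC18, in 786-M1A (left) and OS-LM1 (right), with 95% intervals and filled points where the adjusted p was under 0.05. PLIN3 lies left of 0 in all 4 comparisons, G0S2 reaches 2.23 in 786-M1A with shPAX8-1, and HILPDA lies at -2.54 and -2.48 in OS-LM1.

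PNPLA2, or adipose triglyceride lipase, carries out the first cut of stored triglyceride. In 786-M1A it was 97.0 to 145 CPM with sgNTC18 and 159 to 239 CPM with shPAX8-2, with no overlap (log2 0.68 ± 0.19, adjusted p = 0.00511). With shPAX8-1 it stood at 149 and 123 CPM in replicates 1 and 2 and at 90.7 and 84.1 CPM in replicates 3 and 4. The fitted log2 fold change of -0.15 ± 0.18 did not pass (adjusted p = 0.482) and was 0.11 with replicates 1 and 2 alone, -0.51 with replicates 3 and 4 alone (adjusted p = 0.00922) and 0.65 with the GC trend removed (adjusted p = 1.27e-07). In OS-LM1 PNPLA2 was 95.1 to 120 CPM with sgNTC18, 57.1 to 78.6 CPM with shPAX8-1 and 74.0 to 118 CPM with shPAX8-2. It fell with shPAX8-1 (log2 -0.58 ± 0.13, adjusted p = 0.000378), but with the GC trend removed the value was 0.0044 (adjusted p = 0.960). With shPAX8-2 it was -0.17 ± 0.13 (adjusted p = 0.251) and turned to 0.22 with the trend removed, which passed as an increase (adjusted p = 0.0129).

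G0S2, a small protein that binds adipose triglyceride lipase and blocks it, lies at chr1:209675412-209676390. In 786-M1A it stood at 15.7, 18.2, 18.4 and 16.9 CPM with sgNTC18, at 73.9, 76.6, 81.6 and 88.5 CPM with shPAX8-1 and at 39.8, 49.8, 47.2 and 57.6 CPM with shPAX8-2. The 3 groups did not overlap. G0S2 was 4.70-fold higher with shPAX8-1 (log2 2.23 ± 0.12, adjusted p = 9.01e-10) and 2.85-fold higher with shPAX8-2 (log2 1.51 ± 0.12, adjusted p = 7.67e-08). A change at least as large with shPAX8-1 was seen in 8.36% of genes tested, and with shPAX8-2 in 13.2%. In OS-LM1 the constructs parted. G0S2 stood at 44.2, 36.7, 38.6 and 41.5 CPM with sgNTC18, at 53.5, 48.0, 71.3 and 52.0 CPM with shPAX8-1 and at 22.5, 26.7, 29.8 and 20.5 CPM with shPAX8-2, again without overlap. It rose by 0.46 ± 0.13 on the log2 scale with shPAX8-1 (adjusted p = 0.00306) and fell by 0.69 ± 0.13 with shPAX8-2 (adjusted p = 9.49e-05), and with the GC trend removed these values were 0.92 and -0.39. Directly between the constructs G0S2 was higher with shPAX8-1 in both lines, by 0.72 ± 0.12 in 786-M1A (adjusted p = 0.000288) and by 1.14 ± 0.13 in OS-LM1 (adjusted p = 2.29e-06), and in 786-M1A by 1.15 with the GC trend removed.

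HILPDA, the other small inhibitor of this lipase and a gene known to be induced by hypoxia, lies at chr7:128455878-128458418. It showed the largest fold change of any member in OS-LM1. It stood there at 15.7, 14.4, 12.9 and 10.1 CPM with sgNTC18, at 2.43, 2.75, 1.89 and 2.28 CPM with shPAX8-1 and at 1.96, 2.45, 2.50 and 2.43 CPM with shPAX8-2. Every depleted library was below every control. HILPDA fell 5.81-fold with shPAX8-1 (log2 -2.54 ± 0.17, adjusted p = 7.13e-11) and 5.60-fold with shPAX8-2 (log2 -2.48 ± 0.16, adjusted p = 1.12e-10). Changes at least as large were found in 5.48% and 4.49% of genes tested. Between the constructs the log2 difference was -0.05, with a 95% interval of -0.43 to 0.32. In 786-M1A no such decrease was seen. HILPDA stood at 24.2, 25.0, 26.7 and 24.9 CPM with sgNTC18, at 32.9, 26.6, 22.3 and 27.1 CPM with shPAX8-1 and at 41.2, 44.6, 33.3 and 37.7 CPM with shPAX8-2. The shPAX8-1 range spanned the controls (log2 0.13, 95% interval -0.14 to 0.41, adjusted p = 0.368, or 0.24 and adjusted p = 0.0437 with the GC trend removed), whereas all shPAX8-2 libraries were above them (log2 0.66 ± 0.13, adjusted p = 0.000413).

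The ratio of an inhibitor to the lipase it binds can be read in TPM, which were not corrected for the GC trend. G0S2 was 0.360 ± 0.042 times PNPLA2 in 786-M1A with sgNTC18 (SD, n = 4), 1.98 ± 0.66 times with shPAX8-1 and 0.650 ± 0.161 times with shPAX8-2. In OS-LM1 it was 0.996 ± 0.084, 2.11 ± 0.74 and 0.708 ± 0.164 times PNPLA2. The shPAX8-1 libraries of both lines thus held more G0S2 than PNPLA2 transcript in every replicate, the lowest ratios being 1.28 and 1.71. HILPDA was 0.383 ± 0.061 times PNPLA2 with sgNTC18 in 786-M1A and 0.236 ± 0.036 times in OS-LM1. With shPAX8-1 and shPAX8-2 it was 0.455 ± 0.088 and 0.361 ± 0.021 times in 786-M1A. In OS-LM1 it was 0.0612 ± 0.0074 with shPAX8-1 and 0.0475 ± 0.0107 with shPAX8-2.

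CPT1A, the carnitine palmitoyltransferase that controls the entry of long-chain fatty acids into mitochondria, lies at chr11:68754620-68844277 on the minus strand. It fell in 786-M1A with both constructs. There it stood at 20.9, 19.4, 20.1 and 18.1 CPM with sgNTC18, at 7.79, 7.58, 4.76 and 5.69 CPM with shPAX8-1 and at 11.6, 12.9, 9.12 and 9.60 CPM with shPAX8-2. The 3 groups did not overlap, and CPT1A was 2.99-fold lower with shPAX8-1 (log2 -1.58 ± 0.17, adjusted p = 6.73e-07) and 1.78-fold lower with shPAX8-2 (log2 -0.83 ± 0.16, adjusted p = 0.000383). In OS-LM1 it stood at 35.8 to 40.4 CPM with sgNTC18, at 33.4 to 37.9 CPM with shPAX8-1 and at 41.9 to 48.7 CPM with shPAX8-2. The change with shPAX8-1 was -0.13 (95% interval -0.31 to 0.05, adjusted p = 0.174), and CPT1A rose with shPAX8-2 by 0.27 ± 0.09 on the log2 scale (adjusted p = 0.00852).

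**Figure D3:**
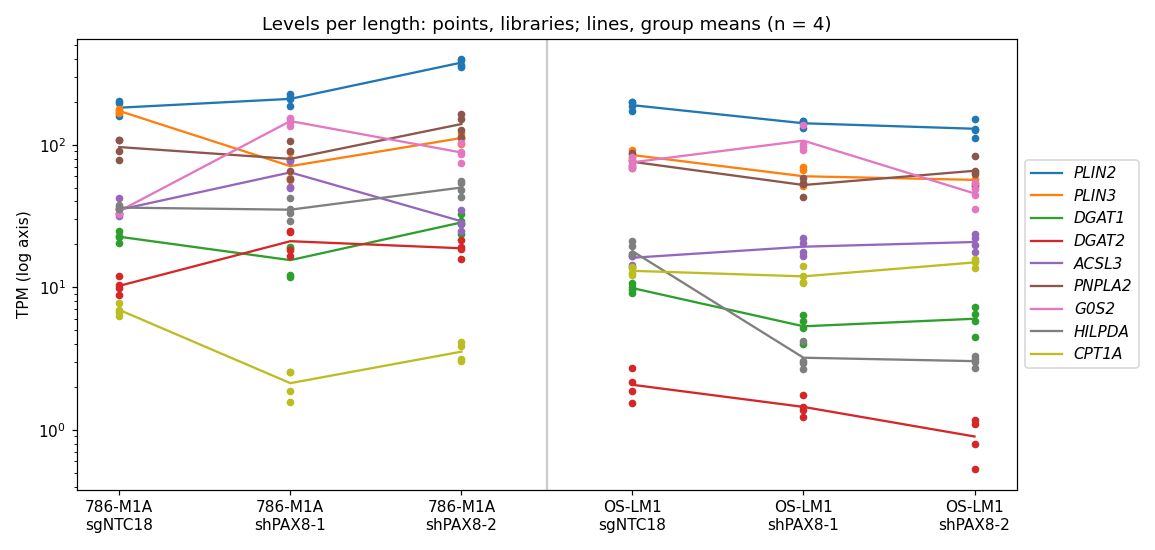
Levels per length (TPM, log axis) of the 9 genes above the filter in 24 libraries, with lines through the group means. PLIN2 is highest in all 6 groups, and HILPDA drops from 17.9 TPM to 3.21 and 3.03 TPM in OS-LM1.

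The order of levels per length was compared within groups. In the 786-M1A sgNTC18 libraries PLIN2 (182 TPM) and PLIN3 (173 TPM) overlapped between libraries, PNPLA2 followed at 96.4 TPM, HILPDA, ACSL3 and G0S2 overlapped at 34.3 to 36.3 TPM, and DGAT1 (22.6 TPM), DGAT2 (10.2 TPM) and CPT1A (6.94 TPM) were each apart. PLIN2 was among the top 2.90% of the 26475 genes. In OS-LM1 PLIN2 (190 TPM) stood apart from PLIN3, PNPLA2 and G0S2, which overlapped at 75.4 to 84.8 TPM. CPT1A (13.1 TPM) was above DGAT1 (9.88 TPM) and DGAT2 (2.07 TPM) there. With shPAX8-1, G0S2 became the member with the second highest mean TPM in both lines, at 147 TPM in 786-M1A and 107 TPM in OS-LM1, where its libraries overlapped with those of PLIN2. The estimated transcript length behind these values ranged between libraries from 1298 to 1379 bases for HILPDA and from 4977 to 5253 bases for CPT1A, and was the same in all libraries for DGAT1, PNPLA2 and G0S2.

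Between the constructs themselves, 8 of the 9 genes differed in 786-M1A, 2 of them higher with shPAX8-1, beside 47.1% of all genes tested (24.2% higher and 22.9% lower). PLIN2, PLIN3, HILPDA, DGAT1, PNPLA2 and CPT1A were lower with shPAX8-1 than with shPAX8-2, with log2 differences of -0.53 to -0.89, and ACSL3 and G0S2 were higher. With the GC trend removed, PLIN3 (-0.26), DGAT1 (-0.36), PNPLA2 (-0.26) and ACSL3 (0.64) still passed with smaller differences, and DGAT2 passed too (0.33, adjusted p = 0.0154). PAX8 was itself 2.26-fold lower with shPAX8-1. In OS-LM1, where PAX8 differed between the constructs by -0.05 on the log2 scale (95% interval -0.31 to 0.21), 3 of the 9 passed, 1 of them higher, beside 29.1% of all genes (12.4% higher and 16.7% lower). These were PNPLA2 (log2 -0.42 ± 0.13), CPT1A (log2 -0.41 ± 0.09) and G0S2 (log2 1.14 ± 0.13). The call of PNPLA2 was lost without shPAX8-1 replicate 3 (-0.30), shPAX8-2 replicate 3 (-0.26) or shPAX8-2 replicate 4 (-0.38) of OS-LM1. PNPLA2 was -0.21 with the GC trend removed, when DGAT2 (0.73, adjusted p = 0.0245) and ACSL3 (-0.25, adjusted p = 0.0137) passed as well. For G0S2, 4.83% of genes tested differed at least as much.

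In the sgNTC18 libraries, where PAX8 was not depleted, the lines also differed in these genes. Line and any batch of the line cannot be told apart, here and in the comparisons of lines below. With sgNTC18, 7 of the 9 genes differed between OS-LM1 and 786-M1A, 2 of them higher in OS-LM1, beside 63% of all genes tested (32% higher and 31% lower). DGAT2 was 4.65-fold lower in OS-LM1 (log2 -2.22 ± 0.18, adjusted p = 3.11e-11), and DGAT1, ACSL3, PLIN3 and HILPDA were lower by 2.16-fold, 2.04-fold, 1.92-fold and 1.90-fold. G0S2 was 2.33-fold higher (adjusted p = 8.23e-09) and CPT1A 1.93-fold higher (adjusted p = 1.39e-07). PLIN2 did not pass, with a 95% interval of -0.06 to 0.35, and PNPLA2 was -0.27, or 0.38 with the GC trend removed (adjusted p = 2.32e-05), when DGAT1 was -0.57. In the depleted libraries all 9 genes tested differed between the lines, 1 of them higher in OS-LM1, beside 83.1% of all genes (41.7% higher and 41.5% lower). DGAT2 was then 18.0-fold lower and HILPDA 13.9-fold lower in OS-LM1, and CPT1A 4.77-fold higher. PLIN3 was -0.35 and PNPLA2 -0.30 with the GC trend removed, in place of -0.65 and -0.87.

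**Figure D4:**
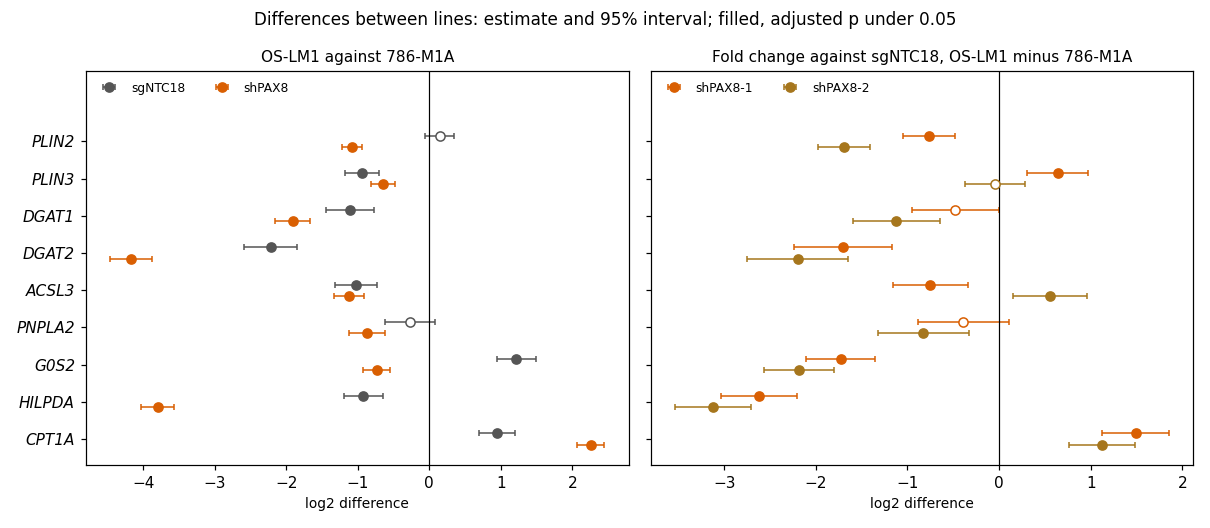
Log2 differences between the lines with 95% intervals, for levels in OS-LM1 against 786-M1A (left) and for the fold change of each construct against sgNTC18 in OS-LM1 minus that in 786-M1A (right), with filled points where the adjusted p was under 0.05. HILPDA and DGAT2 lie furthest to the left on the right side, at -3.12 and -2.20 with shPAX8-2, and CPT1A lies to the right, at 1.49 and 1.12.

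Whether the response to a construct differed between lines was tested as an interaction. For shPAX8-1 against sgNTC18, 7 of the 9 genes differed, 2 of them with the larger log2 fold change in OS-LM1, beside 55.3% of all genes tested (28.2% higher and 27.1% lower). For shPAX8-2 the count was 8, 2 of them larger in OS-LM1, beside 53.2% (27.5% higher and 25.7% lower). HILPDA differed most, by -2.63 ± 0.20 with shPAX8-1 (adjusted p = 3.43e-11) and -3.12 ± 0.20 with shPAX8-2 (adjusted p = 1.52e-12), and 7.82% and 4.73% of all genes differed at least as much. DGAT2 differed by -1.70 ± 0.26 and -2.20 ± 0.27, G0S2 by -1.73 ± 0.18 and -2.18 ± 0.19 and PLIN2 by -0.76 ± 0.14 and -1.69 ± 0.14, all with the lower change in OS-LM1. CPT1A differed the other way, by 1.49 ± 0.18 (adjusted p = 7.67e-08) and 1.12 ± 0.17 (adjusted p = 6.18e-06). ACSL3 differed in opposite directions with the constructs, by -0.75 ± 0.20 with shPAX8-1 and 0.55 ± 0.20 with shPAX8-2, and the latter did not pass without 786-M1A sgNTC18 replicate 1 or 786-M1A shPAX8-2 replicate 2 (adjusted p = 0.0520 and 0.0501). With the GC trend removed the latter was 0.27 (adjusted p = 0.0204). DGAT1 and PNPLA2 did not pass for shPAX8-1 (-0.48 and -0.39), but did with the GC trend removed (-0.70 and -0.67) and with 786-M1A shPAX8-1 replicates 1 and 2 alone (-0.80 and -0.72). PLIN3 fell by less in OS-LM1 with shPAX8-1 (0.64 ± 0.16) and differed by -0.05 with shPAX8-2 (95% interval -0.38 to 0.28). For the difference between the constructs, 4 of the 9 genes changed between lines, 3 with the larger value in OS-LM1, beside 27.2% of all genes (12.7% higher and 14.5% lower). Without 786-M1A shPAX8-1 replicate 1 the count was 7, and with 786-M1A shPAX8-1 replicates 3 and 4 alone it was 8. DGAT1, one of the 4 (0.64), did not pass with the GC trend removed (0.27, adjusted p = 0.129) or with replicates 1 and 2 alone (0.36, adjusted p = 0.290), and PLIN3 was 0.39 in place of 0.69 with the trend removed. PAX8 itself fell by less in OS-LM1, and the part of the depth of depletion in these differences was not tested.

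The remaining genes of fatty acid handling were counted in 7 lists of 96 genes in all, of which 76 were tested in 786-M1A and 80 in OS-LM1. With shPAX8-1 in 786-M1A 32 were higher and 29 lower, beside 36.1% and 34.5% of all genes, and with shPAX8-2 22 and 31, beside 31.5% and 30.9%. In OS-LM1 the counts were 32 and 30 with shPAX8-1, beside 35.6% and 35.8% of all genes, and 27 and 30 with shPAX8-2, beside 34.3% and 34.1%. The counts of single lists that follow are to be read against these shares, and nothing is called particular to a list from them. No value of these lists or their genes is corrected for the GC trend. In fatty acid oxidation, 12 of 21 genes fell with each construct in 786-M1A (34.5% and 30.9% of all genes) while 5 and 6 rose (36.1% and 31.5%), with a median log2 fold change of -0.39 and -0.47 beside 0.03 and 0.02 over all genes. In OS-LM1 the list split 8 higher to 9 lower and 6 higher to 10 lower, with medians of 0.07 and -0.07 beside -0.01 over all genes. ECI1, an enoyl coenzyme A isomerase, fell in all 4 comparisons, with log2 fold changes of -2.79 and -1.96 in 786-M1A and -1.62 and -1.15 in OS-LM1. ACADS, the short-chain acyl coenzyme A dehydrogenase, fell likewise (-2.34, -1.10, -1.42 and -1.04 in the same order), whereas ETFDH, which passes electrons from these dehydrogenases to ubiquinone, rose (1.86, 1.59, 1.24 and 0.85).

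**Figure D5:**
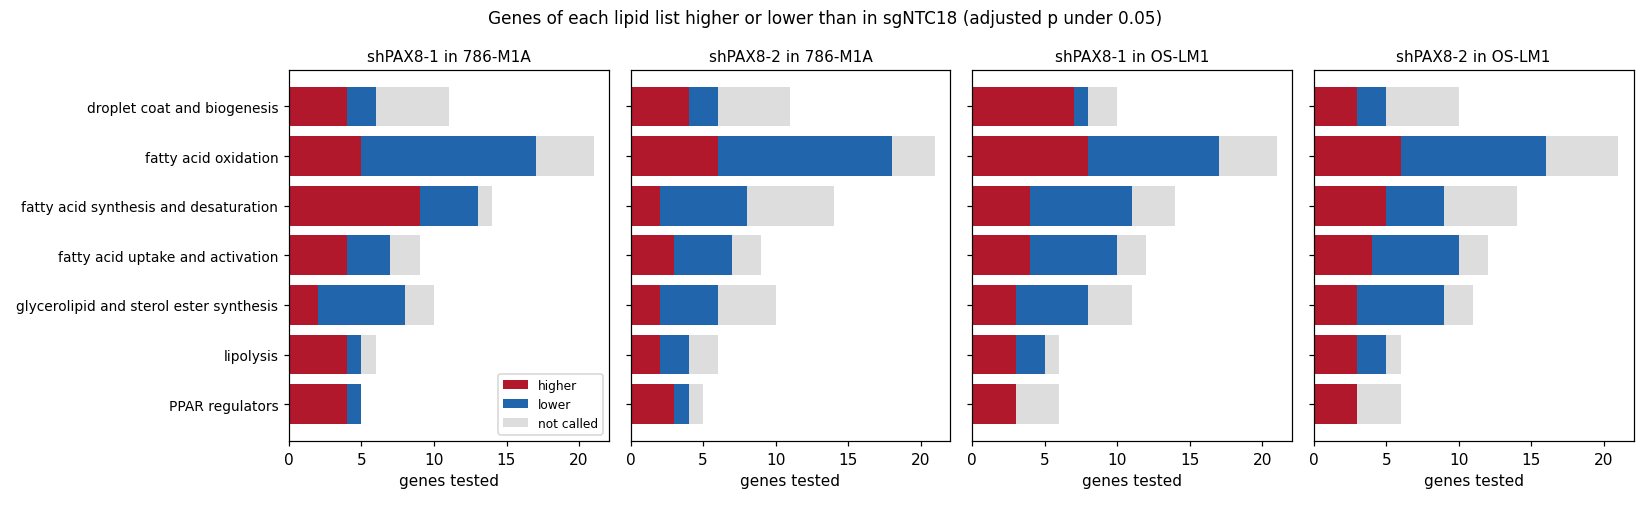
Number of tested genes of each of 7 lipid lists that were higher, lower or not called against sgNTC18 (bars from 0) for both constructs in both lines. Of 21 fatty acid oxidation genes, 12 were lower with each construct in 786-M1A.

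Of 14 genes of fatty acid synthesis and desaturation, 9 rose and 4 fell with shPAX8-1 in 786-M1A (36.1% and 34.5% of all genes), while 2 rose and 6 fell with shPAX8-2 (31.5% and 30.9%). The counts in OS-LM1 were 4 and 7, and 5 and 4. SCD, the stearoyl coenzyme A desaturase that makes oleate, rose in all 4 comparisons, by 1.96 and 0.68 on the log2 scale in 786-M1A and by 0.78 and 0.89 in OS-LM1. ELOVL5, an elongase of polyunsaturated fatty acids, rose by 1.24, 0.74, 0.72 and 1.03. ACACB, the mitochondrial acetyl coenzyme A carboxylase whose product inhibits CPT1A, fell (-1.10, -0.65, -0.60 and -0.67). In uptake and activation, FABP5, a fatty acid binding protein, fell (-1.47, -2.01, -2.11 and -1.58), as did the acyl coenzyme A synthetase SLC27A4 (-3.22, -2.47, -1.58 and -1.01), while the lipoprotein receptor VLDLR rose by 1.88, 1.58, 0.20 and 0.58.

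Among the other enzymes of glycerolipid and sterol ester synthesis, 6 of 10 genes fell and 2 rose with shPAX8-1 in 786-M1A (34.5% and 36.1% of all genes), and 4 fell and 2 rose with shPAX8-2 (30.9% and 31.5%). In OS-LM1 5 of 11 fell and 3 rose with shPAX8-1, and 6 fell and 3 rose with shPAX8-2. The phosphatidic acid forming enzyme AGPAT2 fell (log2 fold changes of -2.30, -0.69, -0.95 and -0.34), and so did AGPAT3 (-1.43, -0.63, -1.05 and -0.60). Of the 6 genes of lipolysis, MGLL, which cleaves monoglyceride in the last step of lipolysis, fell (-1.98, -0.91, -1.75 and -0.97), while PNPLA3, a droplet protein of the PNPLA2 family, rose by 1.20, 1.07, 2.54 and 0.68 and the monoglyceride lipase ABHD6 by 0.62, 0.55, 0.82 and 0.78. In droplet coat and biogenesis, 4 of 11 genes rose and 2 fell with each construct in 786-M1A, where 36.1% and 31.5% of all genes rose, and 7 of 10 rose and 1 fell with shPAX8-1 in OS-LM1, where 3 rose and 2 fell with shPAX8-2. AUP1, a droplet protein with a role in protein degradation, fell (-0.98, -0.44, -0.97 and -0.64), and FAF2, which also acts in protein degradation at droplets, rose (0.33, 0.28, 0.43 and 0.24).

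The list of PPAR regulators, nuclear receptors and coactivators that are known to act on PLIN2 and CPT1A, had 4 of 5 genes higher and 1 lower with shPAX8-1 in 786-M1A (36.1% and 34.5% of all genes) and 3 higher and 1 lower with shPAX8-2 (31.5% and 30.9%). In OS-LM1 3 of 6 were higher and none lower with either construct. PPARG, named because it differed between the constructs in both lines, changed by 3.53 and 2.69 on the log2 scale in 786-M1A. In OS-LM1 it changed by 0.41 and -0.07, and the value of -0.07 did not pass. Values of the other genes of this list against sgNTC18, higher or lower, are not given here. The part of these regulators in the results was not tested.

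Between the constructs themselves, genes of these lists that passed in both lines included DECR1, a dienoyl coenzyme A reductase of fatty acid oxidation (log2 difference of 0.79 in 786-M1A and 0.51 in OS-LM1), the elongase ELOVL6 (0.83 and 0.42), the acyl coenzyme A synthetase ACSL5 (1.68 and 0.69), the droplet protein LDAH (0.48 and 0.32), PPARG (0.84 and 0.48) and the coactivator PPARGC1B (1.33 and 0.39), all higher with shPAX8-1. Lower with shPAX8-1 were SREBF1, a transcription factor of lipid synthesis (-1.21 and -0.87), HADHB, the beta subunit of the mitochondrial trifunctional protein (-1.05 and -0.62), AGPAT2 (-1.61 and -0.61), AGPAT3 (-0.80 and -0.45), MGLL (-1.07 and -0.78), SLC27A4 (-0.75 and -0.57) and AUP1 (-0.54 and -0.32).

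The genes whose log2 CPM followed a member most closely over all 24 libraries were listed by Pearson correlation, as a description, since the libraries share lines and constructs. For HILPDA these were IQGAP3 (r = 0.992) and ABCA3 (r = 0.988), for DGAT2 TMEM158 (r = 0.984) and MCAM (r = 0.983), and for CPT1A CYP4F11 (r = 0.989). The closest gene to PLIN3 was CDK9 (r = 0.983), to ACSL3 WDFY1 (r = 0.983) and to DGAT1 RABAC1 (r = 0.980). PNPLA2, PLIN2 and G0S2 had less close partners, at r = 0.945 for PPP1R13L, 0.939 for AFF3 and 0.938 for C10orf90.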

How the data were processed

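RNA sequencing of 24 libraries (2 lines, 3 constructs, 4 replicates) was analysed from the files the authors deposited, 1 per library. The authors aligned reads with Bowtie2 to hg38 and quantified genes with RSEM (versions and annotation release not given in the sources used here), and deposited expected counts, TPM and effective lengths per gene. The labels name a stranded mRNA kit, whereas the methods of the study name other kits, and the control named there for RNA interference is not used here.

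Expected counts were rounded to whole numbers. Genes were filtered with filterByExpr, leaving 14452 genes in the fit of the 786-M1A libraries, 15049 in that of OS-LM1 and 15665 in that of all 24, and tested with TMM factors and the quasi-likelihood test of edgeR 4.0.16 in R 4.3.3. A gene was called at a Benjamini-Hochberg adjusted p under 0.05. Differences between lines came from the fit of all 24 libraries. CPM were scaled by TMM factors. The test was tested on simulated data. Alternatives were DESeq2 1.42.0, its size factors, no filter, stricter calls, removal of the GC trend with a spline of 5 degrees of freedom, thinning to the smallest total, a replicate block, 1 fit of all libraries and leaving out libraries. A 2-fold minimum, and the line comparisons with pairs of 786-M1A shPAX8-1 replicates, were added after the data were seen.

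Genes other than members were named where they passed in all 4 comparisons with sgNTC18 with one sign, up to 3 per list by mean absolute log2 fold change, or between the constructs in both lines, up to 2 per list, and by correlation of log2 CPM (prior count of 2), of which the closest 1 or 2 are printed. The members and lists were chosen with earlier results of these data known. Replicate numbers were shared between groups, but deviations of same-numbered libraries were not correlated above 0.1 in every pair, and the numbers were not taken to pair libraries. No 2 replicates differed by less than sampling noise. Gene positions and promoters are from RefSeq on GRCh38.p14, and guide sequences from the study's oligonucleotide list, matched to GENCODE transcripts on GRCh38. One gene picked by the correlation rule is not reported here.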

Additional observations from a re-analysis of the deposited data

Results flagged for a closer look

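PAX8 and each member were checked in each group of libraries, giving 66 sets of 4 values, which share libraries. In 2 of these sets a value lay apart from the others by more than Dixon's critical gap, where chance gives about 3.3. HILPDA was 1.96 CPM in OS-LM1 shPAX8-2 replicate 1, below the others of its group, and CIDEC was 0.0603 CPM in OS-LM1 sgNTC18 replicate 4, which is 2 rounded counts.

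The interaction test of edgeR, at an adjusted p under 0.05, separated the responses of the lines. For shPAX8-1 against sgNTC18, the change in OS-LM1 differed from that in 786-M1A on the log2 scale for PAX8 by 2.45, PLIN2 by -0.76, PLIN3 by 0.64, HILPDA by -2.63, DGAT2 by -1.70, CPT1A by 1.49, ACSL3 by -0.75 and G0S2 by -1.73. For shPAX8-2 against sgNTC18, the change in OS-LM1 differed from that in 786-M1A on the log2 scale for PAX8 by 1.30, PLIN2 by -1.69, HILPDA by -3.12, DGAT1 by -1.12, DGAT2 by -2.20, PNPLA2 by -0.83, CPT1A by 1.12, ACSL3 by 0.55 and G0S2 by -2.18. For shPAX8-1 against shPAX8-2, the change in OS-LM1 differed from that in 786-M1A on the log2 scale for PAX8 by 1.16, PLIN2 by 0.93, PLIN3 by 0.69, DGAT1 by 0.64 and ACSL3 by -1.31. Positive values mean a higher fold change in OS-LM1.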

How the results depend on the processing

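Of 837 values of a member in a comparison under an alternative that changed the test, the scaling, the filter or the libraries (leaving out a single library aside), 770 kept their direction and side of the threshold, 26 reversed, 25 passed where they had not and 16 no longer passed. The median change of all genes moved by less than 0.1 on the log2 scale in every one of them. The cause of the changes listed here was not tested, except that stricter calls leave fewer genes by construction.

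Removing the GC trend reversed DGAT1 (0.34) and PNPLA2 (0.65) for shPAX8-1 against sgNTC18 in 786-M1A, PNPLA2 (0.0044 and 0.22 with the constructs) and ACSL3 (-0.22 with shPAX8-1) in OS-LM1, PNPLA2 between the lines with sgNTC18 (0.38), PLIN3 in the line difference for shPAX8-2 (0.13), and between the constructs in OS-LM1 PLIN3 (0.15), HILPDA (0.0034) and PAX8 (0.10), where 5 members were then called. PAX8 between the lines with sgNTC18 no longer passed (-0.16). The values were 0.34, 0.66, 0.0035, 0.22, -0.21, 0.44, 0.13, 0.15 and, for PAX8, 0.094 and -0.088 when the replicate block was added, and PLIN2 between the lines with sgNTC18 also reversed (-0.042). The replicate block alone reversed no value and took PAX8 between the lines with sgNTC18 past the threshold (-0.37). Of 99 member values it changed the call of 1. Correlations of deviations between same-numbered libraries ran from -0.60 to 0.56, so the block is given as an alternative and not as a paired design.

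PLIN3 between the constructs in OS-LM1, near 0, turned to 0.0029 with DESeq2 size factors, 0.0020 with DESeq2, 0.019 without the filter, 0.016 in 1 fit of all libraries and 0.030 after thinning. With 786-M1A shPAX8-1 replicates 1 and 2 alone, PNPLA2 against sgNTC18 was 0.11, and 3869 genes were called between the constructs in 786-M1A and 2579 in their line difference. With replicates 3 and 4 alone, HILPDA against sgNTC18 was -0.014 and DGAT2 between the constructs -0.11, and the line difference between the constructs had 6817 genes and 8 members called.

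At an adjusted p under 0.01, PAX8 between the lines with sgNTC18 (-0.39) did not pass, and genes called fell to 4329 and 2703 between the constructs in 786-M1A and OS-LM1 and to 2449 in their line difference. With an absolute log2 fold change over 0.58, that PAX8 value (-0.39) did not pass either, and genes called between the constructs were 4335 and 1978. Members called in OS-LM1 were then 3 with shPAX8-1, 4 with shPAX8-2 and 1 between the constructs. The share of all genes called against sgNTC18 at this minimum is not given here, so these member counts are a description only. With a 2-fold minimum, added after the data were seen, that PAX8 value again did not pass (-0.39), and genes called were 5472, 3960 and 1477 in 786-M1A (shPAX8-1, shPAX8-2, between the constructs), 4749, 4080 and 766 in OS-LM1, 4423 and 7127 between the lines with sgNTC18 and shPAX8, and 4925, 4473 and 1455 in the line differences. Members called were then 3 with shPAX8-2 and 1 between the constructs in 786-M1A, beside 27.4% and 10.2% of all genes. They were 1, 2 and 1 in OS-LM1, beside 31.6%, 27.1% and 5.09%, and 4 between the lines with sgNTC18, beside 28.2%. In the line differences for shPAX8-1 against sgNTC18 and against shPAX8-2 they were 4 and 1, beside 31.4% and 9.29%.

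Leaving out 1 library at a time, PAX8 between the lines with sgNTC18 ran from -0.46 to -0.32, and between the constructs in OS-LM1 from -0.14 to 0.087. Also between the constructs in OS-LM1, PLIN2 ran from -0.0028 to 0.13, PLIN3 from -0.060 to 0.087 and HILPDA from -0.12 to 0.061. PLIN3 in the line difference for shPAX8-2 ran from -0.14 to 0.0060, and the line difference between the constructs had 3 to 7 members called. Depth did not allow a comparison of CIDEC.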
